A study of Danio rerio with 6 samples.

Results

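The genes of the mitochondrial genome were read in tails of zebrafish larvae that carry a CRISPR/Cas9 mutation of sirt6, which encodes a NAD-dependent deacylase, and in tails of wild-type larvae. Every gene placed on the chromosome named MT with a protein-coding, rRNA or tRNA class was taken, which gave 37 of the 38157 genes listed: 13 protein-coding, 2 rRNA and 22 tRNA genes. A further unannotated gene model on MT is described at the end and was not counted. The groups were sirt6 mutant and wild type, with 3 libraries each of tail RNA with its blood-forming tissue, taken at 3 days post fertilisation. The strain, the zygosity and the position of the sirt6 lesion are not given in the labels, nor whether the libraries came from separate pools of larvae, so p-values measure the spread between these libraries, which may be technical. Poly-A selection was used before library preparation, and levels are in FPKM (fragments scaled to gene length and library size).

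The mitochondrial genome encodes subunits of the respiratory chain and ATP synthase, together with the rRNAs and tRNAs that its own ribosomes use to make them. In vertebrates both strands are transcribed into long precursors that cover many genes. In the punctuation model of processing, the tRNAs that lie between the mRNAs and rRNAs are cut out, and most of the released mRNAs then receive short poly-A tails. In zebrafish, as in other vertebrates, most genes lie on one strand, and mt-nd6 and some of the tRNA genes lie on the other.

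Values per library are listed below in the order of the library numbers, wild type first. The libraries held 12438359 to 14655293 reads in genes. The targeted gene sirt6 did not separate the genotypes, with 5.85, 3.25 and 2.44 FPKM against 3.52, 3.39 and 3.04 FPKM, so its level did not check the labels. Wild-type libraries 2 and 3 were close to each other across genes (Pearson r = 0.975), as were mutant libraries 1 and 3 (r = 0.977). The other pairs had r of 0.946 to 0.964, a description across genes. Wild-type library 1 was closer to mutant libraries 1, 2 and 3 (r = 0.964, 0.962 and 0.958) than to wild-type libraries 2 and 3 (0.949 and 0.946). Mutant library 2 was closer to wild-type libraries 1 and 2 (0.962 and 0.957) than to mutant libraries 1 and 3 (0.954 and 0.951). Genes shorter than 1000 bases deviated by 0.19 (log2, median) from the mean of all libraries in wild-type library 1 and by -0.06 to 0.03 in the other libraries. Skeletal muscle markers summed to 17251 to 22049 FPKM among wild-type libraries and 16755 to 21695 FPKM in mutants. Retina and lens markers, of organs outside the tail, summed to 1243 to 1710 FPKM and 1780 to 2178 FPKM, notochord and cartilage markers to 417 to 489 FPKM and 505 to 569 FPKM, and myeloid markers to 25.8 to 27.7 FPKM and 45.7 to 50.1 FPKM. These 3 sums did not overlap between genotypes, but they overlapped without rho for retina, col2a1a for cartilage, and mpx with npsn for myeloid cells. Those genes were left out because they carried the separation, after their values had been seen, so this overlap is no independent check. They were not always the highest of their list, since matn1 stood above col2a1a in wild type, at 231 against 122 FPKM. The rod genes saga and gnat1 were also higher in each mutant library, whereas gnat2, cryaa and opn1sw1 had lower means in mutants. In the notochord and cartilage list tbxta was also higher in each mutant library, and all 7 genes tested had higher means. The macrophage marker mpeg1.1, at a level too low to be tested, was lower in each mutant library, at 0.173 against 0.40 FPKM in the mean. The macrophage marker marco overlapped between genotypes, at 1.14 FPKM in mutants against 1.06 FPKM in wild type. The part of these markers in the results below was not tested. Fewer cells of a type and less RNA per cell cannot be told apart in such libraries.

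Mitochondrial genes took 4.82% to 7.05% of the reads in genes, nearly all of it mRNA. Protein-coding genes held 4.81%, 6.91% and 6.98% in wild type, and 4.76%, 5.59% and 4.87% in the mutant libraries. Wild-type libraries 2 and 3 were the highest and wild-type library 1 lay among the mutants, so the genotypes overlapped. The mean share was 6.23% ± 1.23 for wild type and 5.07% ± 0.451 for mutants (SD, n = 3). The rRNA genes held 0.0525% ± 0.00826 and 0.0452% ± 0.00429, again with overlap. The tRNA genes held 0.0192%, 0.00906% and 0.00958% in wild type against 0.00642%, 0.00738% and 0.0073% in mutants. All mutant libraries thus lay below all wild-type libraries in tRNA reads, and wild-type library 1 lay far above the rest. Without trnN and trnC, which held most of these reads, the tRNA shares were 0.00233%, 0.00316% and 0.00346% against 0.00286%, 0.00298% and 0.00366%, and they overlapped.

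With limma on log2(FPKM + 0.5) and Benjamini-Hochberg adjustment over all 23855 genes tested, 0 of the 35 mitochondrial genes tested passed an adjusted p of 0.05, against 0% of all genes. At an unadjusted p under 0.05 there were 6 lower and 5 higher mitochondrial genes in mutants, where 3.28% and 2.45% of all genes had such a p in each direction. The lower ones include trnF and trnA, with 0 reads in every mutant library and at most 3 in any wild-type library. Both reached the mean of 0.5 FPKM needed for testing through wild type alone. Limma voom on reads recovered from the FPKM values also called 0 mitochondrial genes, against 0% of all genes. At an unadjusted p under 0.05 voom had 8 lower and 4 higher ones, where 4.95% of all genes had such a p in either direction. Without wild-type library 1 and mutant library 2, a choice made after the spread of the libraries had been seen, 19 mitochondrial genes passed limma as lower and 4 as higher. Among the lower ones were 12 of the 13 protein-coding genes, and also trnA, at 0 to 2 reads per library. In that fit 9.42% of all genes passed as lower and 9.15% as higher, and the libraries it keeps are the close pairs named above, so genotype and pair cannot be told apart. A filter of a mean of 0.5 FPKM left out trnT and trnP, which had 0 reads in every library. The genotypes had no overlap in 5 lower members (trnQ, trnN, mt-atp8, mt-nd3 and mt-nd4l) and in 4 higher ones (trnL1, trnK, trnR and trnL2). Over all genes tested, 5.4% were apart as lower and 5.16% as higher. All 13 protein-coding and both rRNA genes had lower means in mutants, while 13 tRNA genes had lower and 7 had higher means, except that mt-rnr1 turned higher with quantile normalization and trnS2 and trnE with voom. Here and below, counts of lower and higher means refer to log2(FPKM + 0.5). The median log2 fold change was -0.36 over the protein-coding genes, -0.14 over the rRNA genes and 0.00 over all genes tested. Without mutant library 3 the rRNA median was -0.04. Over the 20 tRNA genes tested the median was -0.41, with -0.69 without wild-type library 1, -0.17 without wild-type library 2 and -0.15 without wild-type library 3, but trnF and trnA had 0 reads in every mutant library. With these 2 genes set to the bound that 3 reads over the mutant group allow, the tRNA median was -0.24.

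**Figure D1:**
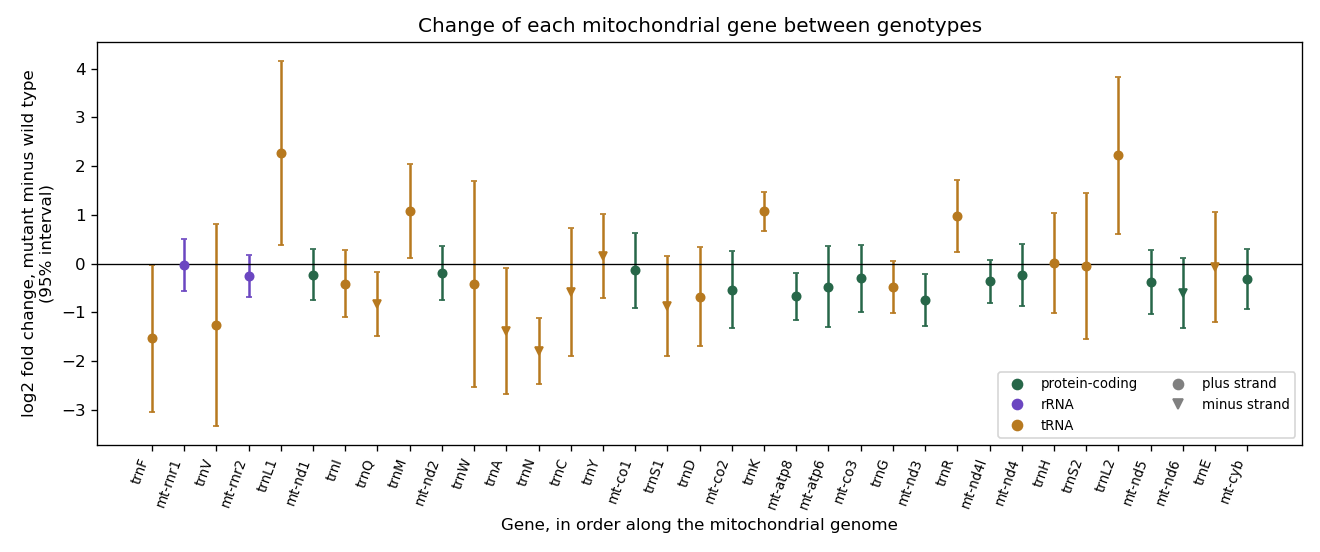
Log2 fold change (mutant minus wild type, on log2(FPKM + 0.5)) with its 95% interval for the 35 mitochondrial genes tested, in genome order; circles mark the plus strand and triangles the minus strand. The protein-coding genes lie between -0.75 and -0.14, whereas the tRNA genes spread from -1.79 to 2.27.

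The oxidase genes mt-co2 and mt-co1 of complex IV, cytochrome c oxidase, had the highest wild-type levels per length. In wild type mt-co2 stood at 11965 ± 2147 FPKM, mt-co1 at 11902 ± 2049, and mt-atp6, the membrane subunit of ATP synthase that forms its proton channel, at 10874 ± 3180 (SD, n = 3). The means of these leading levels lay within their spread between libraries, although mt-atp6 lay below mt-co1 and mt-co2 within each wild-type library. The third oxidase gene, mt-co3, followed at 8746 ± 401 FPKM, and mt-cyb, the cytochrome b of complex III, at 5399 ± 682. The complex I genes, which encode membrane subunits of NADH dehydrogenase, were lower, from 2947 ± 155 FPKM for mt-nd1 down to 1424 ± 140 for mt-nd4l. Within this group the means of mt-nd1, mt-nd4, mt-nd2 and mt-nd6 lay within their spread of each other. Within each wild-type library, however, mt-nd1 lay above mt-nd2 and mt-nd6. The lowest protein-coding level was that of mt-atp8, a small accessory subunit of ATP synthase, at 140 ± 10.5 FPKM. It shares 7 bases with mt-atp6 and 158 of its 165 bases lie outside other genes. Its level per length was 2.1, 1.08 and 1.03 for each 100 of mt-atp6 in wild type and 0.958, 1.01 and 1.58 in mutants. In vertebrates this pair of reading frames is carried on a shared transcript. The sources used here do not state how reads over both genes were counted, and the part of that counting in the low level of mt-atp8 was not tested.

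The oxidase genes mt-co1 and mt-co2 were highest in wild-type libraries 2 and 3. For mt-co1, which encodes the catalytic subunit, levels were 9536, 13094 and 13078 FPKM among wild-type libraries and 9771, 12556 and 10036 FPKM in mutants. Wild-type library 1 was the lowest of all, and the genotypes overlapped, with a log2 fold change of -0.14 (95% interval -0.90 to 0.63, limma adjusted p = 0.973). For mt-co2, which receives electrons from cytochrome c, they were 9486, 13167 and 13241 FPKM against 7233, 10509 and 7183 FPKM. Mutant library 2 lay above wild-type library 1, with a log2 fold change of -0.53 (95% interval -1.32 to 0.25, limma adjusted p = 0.924). For mt-co3 the levels were 9207, 8548 and 8483 FPKM against 6584, 8529 and 6322 FPKM. Here wild-type library 1 was the highest, and mutant library 2 reached the wild-type range.

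**Figure D2:**
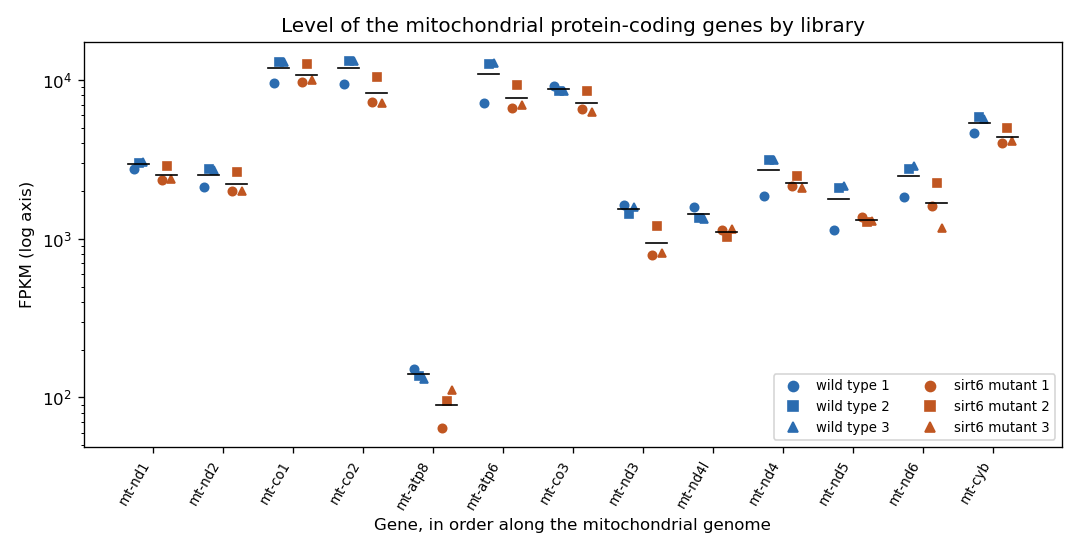
FPKM on a log axis for the 13 protein-coding genes in genome order, 1 point per library, with black lines at the means of each genotype. The mutant mean lies below the wild-type mean for each gene, and the points of the genotypes are apart for mt-atp8, mt-nd3 and mt-nd4l.

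As shares of the mitochondrial mRNA, which do not depend on library size, mt-co1 and mt-co2 did not overlap between genotypes. Of all reads in the 13 protein-coding genes, mt-co1 held 29.4%, 30.0% and 29.9% in wild type and 33.1%, 33.2% and 33.9% in the mutants. The mutant libraries all lay above the wild-type ones, with means of 33.4% ± 0.431 and 29.7% ± 0.328 (SD, n = 3). An exact permutation test, two-sided, had p = 0.1, the smallest that 3 against 3 libraries allow. The share of mt-co2 was 13.01%, 13.4% and 13.5% in wild type and 10.9%, 12.4% and 10.8% in mutants, so it was lower in each mutant library (exact permutation p = 0.1). The share of mt-nd2 was higher in mutants, at 4.62% ± 0.0809 against 4.27% ± 0.128, and that of mt-nd3 lower, at 0.652% ± 0.063 against 0.90% ± 0.212 (SD, n = 3). The other 9 shares overlapped. Among these 13 linked shares, 2 were apart as lower and 2 as higher (15.4% each), which counts only the genes named above. No share over all genes stands beside them, since this measure exists only for these 13 genes. The shares sum to a whole, so that a higher share of mt-co1 lowers the others. FPKM values cannot show whether the mitochondrial sequence of the larvae differed between genotypes, and the part of alignment in these shares and in trnN below was not tested.

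**Figure D3:**
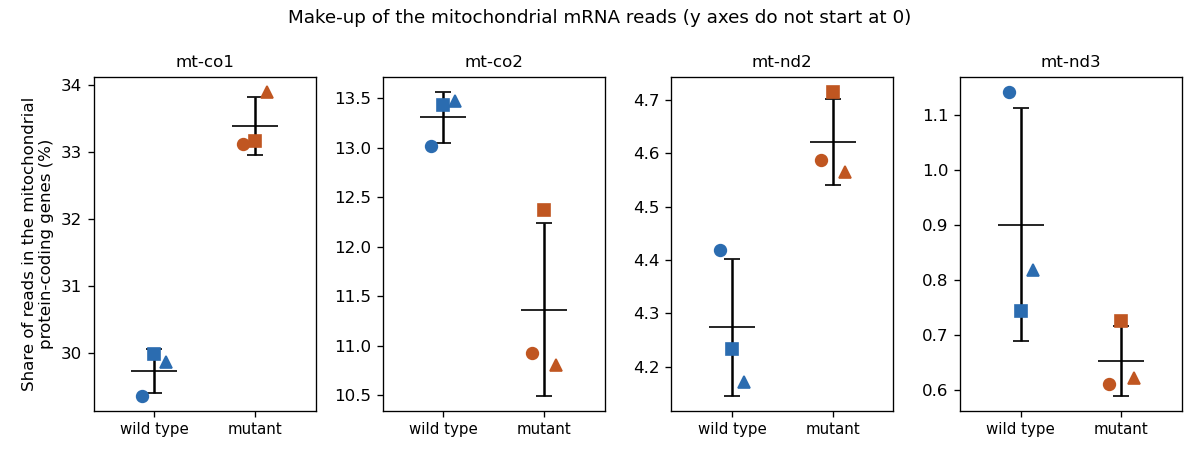
Share of the reads in mitochondrial protein-coding genes held by mt-co1, mt-co2, mt-nd2 and mt-nd3 (percent); circles, squares and triangles are libraries 1, 2 and 3, blue for wild type and orange for mutants, and black bars give the mean and SD. For mt-co1 the mutant libraries lie at 33.1% to 33.9% and the wild-type libraries at 29.4% to 30.0%.

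Set against mt-co1 alone, a ratio chosen after these values had been seen, mt-co2 had 44.3, 44.8 and 45.1 reads for each 100 mt-co1 reads in wild type and 33.0, 37.3 and 31.9 in mutants. The wild-type libraries agreed closely here although their mitochondrial levels differed, and all mutant libraries lay below them. The mean ratio was 44.7 ± 0.398 for wild type and 34.1 ± 2.86 for mutants (SD, n = 3, exact permutation p = 0.1). Any 3 against 3 libraries without overlap give this p, so it adds nothing to the lack of overlap. On the same scale mt-nd3, a small subunit of complex I, had 3.89, 2.48 and 2.74 reads against 1.84, 2.18 and 1.83. The mitochondrial genes apart as lower on this scale were mt-co2, mt-atp6, mt-nd3, mt-nd6 and mt-cyb, and 0 were apart as higher, out of 12. The choice of mt-co1 as the base favours this direction, since its log2 fold change of -0.14 was the smallest fall among the 13 protein-coding genes. Over all other genes tested, 3.52% were apart as lower and 4.02% as higher when set against mt-co1. Most of those genes are nuclear, so these percentages are not a like measure for genes of the mitochondrial genome. For mt-atp6 the ratio was 33.3, 42.5 and 43.2 against 30.1, 32.9 and 30.8, so wild-type library 1 lay close to mutant library 2. Shares by complex overlapped between genotypes: complex I genes together held 23.8% ± 0.703 of the mRNA reads in wild type and 23.7% ± 1.13 in mutants, and complex IV genes 54.4% ± 2.02 and 55.9% ± 0.882 (SD, n = 3).

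The levels of the short complex I genes mt-nd3 and mt-nd4l were lower in every mutant library, whereas the mt-nd4l share of mRNA reads overlapped between genotypes. For mt-nd3 (MT 10590 to 10940 in GRCz11, plus strand) the levels were 1638, 1433 and 1581 FPKM among wild-type libraries and 796, 1212 and 813 FPKM in mutants. All 3 mutant libraries lay below all wild-type libraries, with mutant library 2 the nearest. The log2 difference of the means was -0.75 (SE 0.23; limma adjusted p = 0.775). For mt-nd4l (MT 11009 to 11305, plus strand) the levels were 1585, 1352 and 1336 FPKM against 1130, 1026 and 1157 FPKM, log2 fold change -0.36 (SE 0.19; limma adjusted p = 0.895). It shares 7 bases with mt-nd4. For each 100 of mt-nd4, its level per length was 84.9, 43.0 and 42.7 in wild type and 52.3, 41.5 and 55.2 in mutants, with overlap. The ATP synthase gene mt-atp8 (MT 8894 to 9058) stood at 152, 136 and 131 FPKM against 63.8, 94.7 and 111 FPKM, log2 fold change -0.67 (SE 0.21; limma adjusted p = 0.775). Its reads numbered 140 to 350 per library. These genes are the shortest of the protein-coding class, at 165 to 351 bases, and wild-type library 1, which had the highest level of short genes in general, was the highest library for all of them. The part of gene length in these results was not tested. Without wild-type library 1 the log2 fold changes were -0.71 for mt-nd3, -0.29 for mt-nd4l and -0.61 for mt-atp8, and without mutant library 1 that of mt-atp8 was -0.44.

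The remaining complex I genes overlapped between genotypes. The long genes mt-nd4 and mt-nd5 each had their lowest wild-type value in library 1: mt-nd4 stood at 1868, 3147 and 3131 FPKM among wild-type libraries and 2162, 2470 and 2097 FPKM in mutants. For mt-nd5 the levels were 1132, 2081 and 2147 FPKM against 1372, 1283 and 1302 FPKM, so the mutants lay between wild-type library 1 and the other two. The genes mt-nd1 and mt-nd2 had log2 fold changes of -0.22 and -0.19, and mt-cyb one of -0.31 (limma adjusted p = 0.934, 0.953 and 0.93). The mt-nd6 gene (MT 14714 to 15232), the protein-coding gene on the minus strand, stood at 1833, 2771 and 2872 FPKM among wild-type libraries and 1604, 2239 and 1177 FPKM in mutants. Its log2 difference of -0.60 (SE 0.31, limma adjusted p = 0.896) lay below the median of its class, -0.36. For each 1000 reads of the other 12 protein-coding genes it had 19.3, 21.7 and 22.4 reads in wild type and 18.5, 20.2 and 13.5 in mutants, and mutant library 2 lay within the wild-type range.

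The mitochondrial rRNAs were present at low levels in these poly-A selected libraries. The small-subunit rRNA mt-rnr1 (MT 1020 to 1971) stood at 126, 79.9 and 77.2 FPKM among wild-type libraries and 98.9, 103 and 71.7 FPKM in mutants. The large-subunit rRNA mt-rnr2 (MT 2043 to 3725) stood at 197, 278 and 296 FPKM against 230, 210 and 197 FPKM. Wild-type library 1 was the highest library for the small rRNA and the lowest for the large one. The log2 fold changes were -0.03 (95% interval -0.57 to 0.50) and -0.25 (-0.69 to 0.18), with limma adjusted p of 0.992 and 0.928. The level of mt-rnr2 over mt-rnr1, per length, was 1.56, 3.47 and 3.84 in wild type and 2.33, 2.05 and 2.75 in mutants. For each 1000 protein-coding reads there were 8.97, 8.02 and 8.43 rRNA reads in wild type and 10.5, 7.69 and 8.71 in mutants, and the genotypes overlapped.

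The tRNA genes are 68 to 77 bases long, and the libraries were made after poly-A selection. Whether their reads come from free tRNAs or from precursors and neighbouring transcripts cannot be told from counts per gene and was not tested. The tRNA genes held 821 to 2814 reads per library, and the asparagine and cysteine tRNA genes trnN and trnC held most of them, a pair singled out after their reads had been seen. They lie next to each other on the minus strand, at MT 6178 to 6250 and 6283 to 6354, with 32 bases between them. In vertebrates the origin of light-strand replication lies at this place. Together they held 87.9%, 65.1% and 63.9% of tRNA reads in wild type and 55.4%, 59.6% and 49.8% in mutants.

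Among members with at least 10 reads in all, trnN had the lowest log2 fold change at the added 0.5 FPKM, with 993, 519 and 467 reads in wild type and 147, 229 and 187 in mutants. Its levels were 972, 515 and 500 FPKM against 151, 230 and 173 FPKM, so the genotypes did not overlap, and wild-type library 1 was the highest. The log2 fold change was -1.79 (95% interval -2.46 to -1.12, limma adjusted p = 0.276). It passed limma as lower after quantile normalization (log2 fold change -1.76, adjusted p = 0.0337), where 0.00838% of all genes passed, and over all alternatives its limma adjusted p ranged from 0.00662 to 0.9996. The lowest value came from the fit without wild-type library 1 and mutant library 2, chosen after the data had been seen. In that fit 9.42% of all genes passed as lower. Without wild-type library 1 alone the log2 fold change of trnN was -1.48. With 0.1 FPKM added in place of 0.5, trnV, at 0 to 5 reads per library, was lower still, at -2.59. The neighbour of trnN, trnC, did not follow it: the reads were 1480, 280 and 294 in wild type and 308, 401 and 321 in mutants. Only wild-type library 1 stood apart there, and without it the log2 fold change of trnC was 0.18 instead of -0.58. For each 100 reads of trnC there were 67.1, 185 and 159 reads of trnN in wild type and 47.7, 57.1 and 58.3 in mutants.

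**Figure D4:**
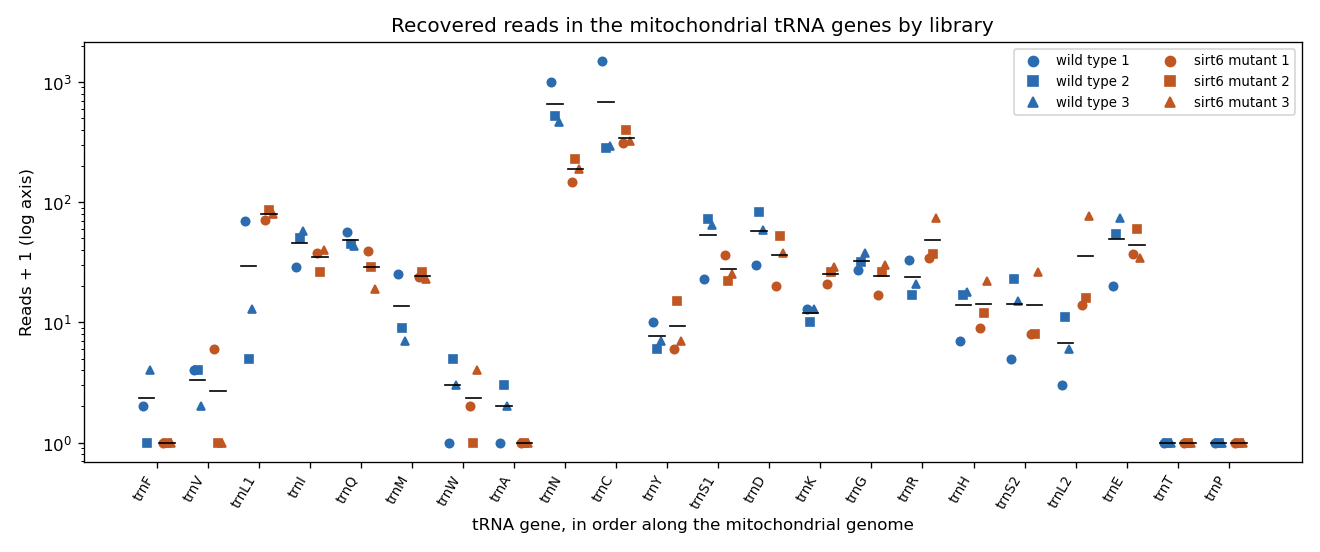
Reads plus 1 on a log axis in each of the 22 tRNA genes in genome order, 1 point per library, with black lines at the means of each genotype. The genotypes are apart for trnN, trnQ, trnL1, trnK, trnR and trnL2, most genes hold under 100 reads per library, and trnT and trnP hold 0 in all libraries.

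Of the 18 other tRNA genes tested, 11 had lower and 7 higher means of log2(FPKM + 0.5) in mutants, with trnH higher only on that scale. The lower ones include trnF and trnA, with 0 reads in every mutant library. Both were tested only because of their wild-type reads, so their direction was fixed in advance. For each 1000 protein-coding reads, these other genes had 0.484, 0.457 and 0.495 reads in wild type and 0.601, 0.534 and 0.753 in mutants. Relative to mRNA, whose own mean was lower in mutants, they were thus higher in each mutant library. This separation rests on trnL1, with 69, 4 and 12 reads against 70, 85 and 79, and without trnL1 the genotypes overlap in this ratio. Here and below, trnL1 was left out after its values had been seen. Whole tRNA reads set against mRNA gave 3.99, 1.31 and 1.37 per 1000 in wild type and 1.35, 1.32 and 1.5 in mutants, and this ratio turns direction without wild-type library 1 (log2 ratio 0.05 instead of -0.68). Genes are split next by their annotated strand, since the sources used here do not state whether reads were counted by strand. The 14 plus-strand tRNA genes held 0.00161%, 0.00187% and 0.00196% of all reads in wild type and 0.00197%, 0.00213% and 0.00309% in mutants. These shares did not overlap, though wild-type library 3 and mutant library 1 nearly met, and without trnL1 they overlapped, at 0.00114%, 0.00184% and 0.00187% against 0.00142%, 0.00154% and 0.00252%. The 8 minus-strand genes held 0.0176%, 0.00719% and 0.00761% against 0.00445%, 0.00525% and 0.00422%, and trnN and trnC made up most of these.

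The tRNA genes with higher means in mutants and an unadjusted limma p under 0.05 were trnL1 for leucine, trnM for methionine, trnK for lysine, trnR for arginine and trnL2 for leucine. For trnK (MT 8821 to 8893) there were 12, 9 and 12 reads in wild type and 20, 25 and 28 in mutants. All mutant libraries lay above all wild-type ones, and the log2 fold change was 1.07 (95% interval 0.67 to 1.47, limma adjusted p = 0.276). For trnL1 (MT 3726 to 3802) there were 69, 4 and 12 reads against 70, 85 and 79, so wild-type library 1 was near the mutants and the other wild-type libraries were far below. Its log2 fold change was 2.27 (95% interval 0.38 to 4.16, limma adjusted p = 0.834). For trnM (MT 4924 to 4992) the same library pattern held, with 24, 8 and 6 reads against 23, 25 and 22. For trnL2 (MT 12823 to 12895) the reads were 2, 10 and 5 against 13, 15 and 75, so mutant library 3 alone was far above. For trnR (MT 10939 to 11008) they were 32, 16 and 20 against 33, 36 and 73, with the highest count again in mutant library 3.

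These 5 genes lie on the plus strand directly before a protein-coding gene, a position noticed after their values. The gap to the next gene is 0 bases for trnL1 before mt-nd1, trnM before mt-nd2, trnK before mt-atp8 and trnR before mt-nd4l, and 1 base for trnL2 before mt-nd5. The same position is held by trnG, 0 bases before mt-nd3, and by trnD, 12 bases before mt-co2, and both had lower means in mutants. For trnG, the glycine tRNA, there were 26, 31 and 37 reads in wild type and 16, 25 and 29 in mutants. For trnD, the aspartate tRNA, there were 29, 81 and 58 against 19, 51 and 37. Both overlapped between genotypes, with log2 fold changes of -0.48 and -0.67 (limma adjusted p = 0.885 and 0.924).

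Of the other tRNA genes, trnQ for glutamine had 55, 44 and 42 reads in wild type and 38, 28 and 18 in mutants, with no overlap and a log2 difference of -0.83 (SE 0.28, limma adjusted p = 0.791). The serine gene trnS1 had 22, 71 and 64 reads against 35, 21 and 24, and the isoleucine gene trnI 28, 49 and 57 against 37, 25 and 39. In both, wild-type library 1 lay with the mutants and wild-type libraries 2 and 3 above. The glutamate gene trnE, which adjoins mt-nd6 on the minus strand, had 19, 53 and 73 reads against 36, 59 and 33. The genes trnH, trnS2 and trnY for histidine, serine and tyrosine had 4 to 25 reads per library and log2 fold changes of 0.02, -0.05 and 0.17, whose signs turned when single libraries were left out. The tryptophan and valine genes trnW and trnV had 0 to 5 reads per library. The phenylalanine gene trnF had 1, 0 and 3 reads in wild type and the alanine gene trnA 0, 2 and 1, with 0 in each mutant library, too few for a fold. For trnT and trnP, the threonine and proline genes, a count of 0 allows up to 2.81 to 3.35 FPKM per library at a limit of 3 reads, for counting error only.

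The unannotated gene model (MT 1 to 917, minus strand) covers the stretch before trnF, which in vertebrates holds the non-coding control region with the promoters. It stood at 234, 305 and 349 FPKM among wild-type libraries and 140, 208 and 130 FPKM in mutants. Every mutant library lay below every wild-type library, with a difference of -0.90 on the log2 scale (SE 0.23, limma adjusted p = 0.70). Whether its reads come from the minus strand is not known, since the sources used here do not state whether counting used strand. For the other genes here, trnN and trnC included, it is likewise not known whether the reads come from the annotated strand. The same holds for genes that share bases, such as mt-nd5 and mt-nd6, which overlap by 4 bases on opposite strands.

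Nuclear genes that express the mitochondrial genome did not pass limma either, with 0 called among 63 tested, also by voom. Of all genes, 0% were called by limma and 0% by voom. At an unadjusted limma p under 0.05 there were 4 lower and 2 higher ones, where 3.28% and 2.45% of all genes had such a p. Of 41 genes of mitochondrial transcription, replication and RNA handling tested, 24 had lower and 17 higher means in mutants, with a median log2 fold change of -0.02. The mitochondrial RNA polymerase gene polrmt stood at 3.75, 3.29 and 3.68 FPKM among wild-type libraries and 4.5, 3.15 and 3.58 FPKM in mutants. The gene of the transcription and packaging factor tfam stood at 23.2, 23.0 and 21.4 FPKM against 18.5, 25.2 and 18.9 FPKM, and that of the mRNA-stabilising protein lrpprc at 23.0, 23.7 and 25.5 against 24.0, 21.2 and 26.2 FPKM. These genes overlapped between genotypes. Its partner slirp was at 29.2 ± 15.2 and 26.04 ± 6.35 FPKM, and the poly-A polymerase gene mtpap at 0.579 ± 0.273 and 0.462 ± 0.303 (SD, n = 3). The elongation factor gene tefm was below the filter, at 0.301 and 0.304 FPKM.

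The enzymes that cut tRNAs from the precursors also overlapped between genotypes. The gene elac2, which trims the 3′ ends, stood at 4.87 ± 0.362 FPKM among wild-type libraries and 5.09 ± 0.468 in mutants, and trmt10c, a subunit of the mitochondrial RNase P that cuts the 5′ ends, at 3.91 ± 2.8 and 4.22 ± 0.881 (SD, n = 3). The machinery genes of smallest p were ptcd2, a pentatricopeptide RNA-binding protein, at 2.47 ± 1.25 and 1.07 ± 0.0406 FPKM, nsun4, an rRNA methyltransferase, at 3.24 ± 0.453 and 2.13 ± 0.463, and mgme1, a mitochondrial DNA exonuclease, at 5.31 ± 0.213 and 3.9 ± 0.541 (limma adjusted p = 0.786, 0.838 and 0.838). All mutant libraries lay below the wild-type ones in these genes. Of the 41 machinery genes tested, 5 were apart as lower and 0 as higher, against 5.4% and 5.16% of all genes. The coactivator gene ppargc1a, a regulator of mitochondrial biogenesis, stood at 6.18, 3.9 and 4.58 FPKM against 9.85, 4.61 and 8.48 FPKM (limma adjusted p = 0.893). The genes gabpa and esrra, transcription factors of respiratory genes, had log2 fold changes of 0.54 and 0.37 (limma adjusted p = 0.902 and 0.913). Of the 5 regulator genes tested, these 3 had higher means in mutants and the other 2 had lower means. Among 17 genes of mitochondrial aminoacyl-tRNA synthesis tested, 7 had lower and 10 higher means. The synthetase genes yars2 and wars2 stood at 4.87 ± 0.463 against 3.41 ± 0.24 FPKM and at 3.63 ± 0.546 against 2.27 ± 0.797, higher in each mutant library (SD, n = 3, limma adjusted p = 0.779 and 0.867).

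Nuclear subunits of the respiratory chain and ATP synthase had lower and higher means in more even numbers. Of 87 tested, 50 had lower and 37 higher means in mutants, and 0 passed limma or voom, against 0% of all genes in each. At an unadjusted limma p under 0.05 there were 2 lower and 1 higher, where 3.28% and 2.45% of all genes had such a p. The median log2 fold change was -0.03. This median had no stable direction, from -0.17 without wild-type library 3 to 0.19 without wild-type library 1 when single libraries were left out. As a median over these nuclear genes, libraries deviated from their mean by 0.60, -0.20 and -0.26 (log2) in wild type and by -0.09, 0.27 and -0.24 in mutants. The mitochondrial protein-coding genes had -0.06, 0.28 and 0.25 in wild type and -0.26, 0.07 and -0.23 in mutants. Wild-type library 1 was thus the highest library for the nuclear subunits and lay below both other wild-type libraries for the mitochondrial ones, while mutant library 2 was the highest mutant library for both. Subunit genes of smallest p were sdhc, a membrane anchor of complex II, at 8.70 ± 1.57 FPKM in mutants against 4.36 ± 2.31 in wild type, ndufa3 of complex I at 21.7 ± 6.34 against 38.6 ± 16.5, and atp5mea of ATP synthase at 27.9 ± 6.21 against 48.2 ± 22.2 (SD, n = 3, limma adjusted p = 0.775, 0.838 and 0.867). The genotypes overlapped for sdhc and ndufa3, while atp5mea was lower in each mutant library. In wild type ndufa3 stood at 57.5, 30.3 and 27.8 FPKM and atp5mea at 73.9, 36.0 and 34.8 FPKM, so library 1 was far above the others.

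**Figure D5:**
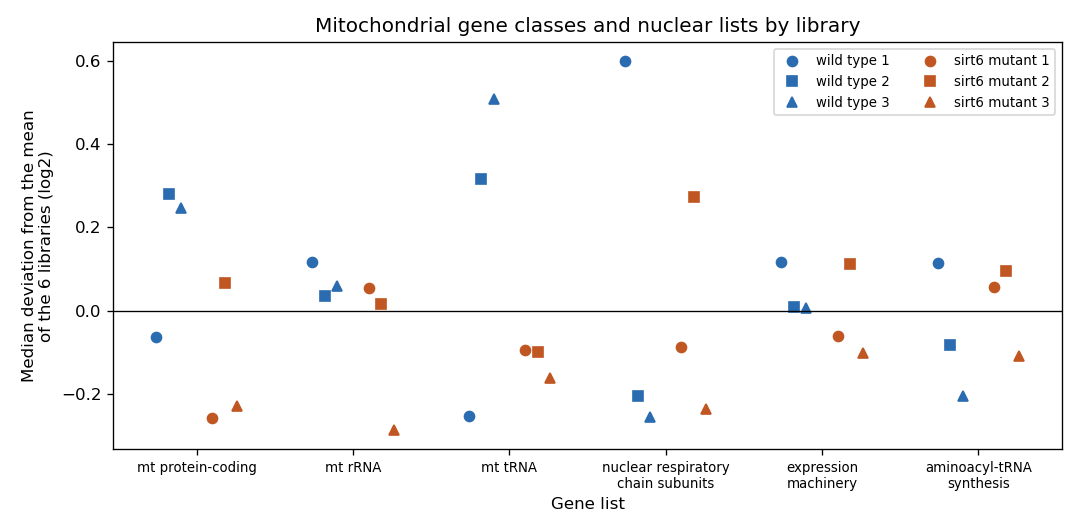
Median deviation from the mean of the 6 libraries, on the log2 scale, for the mitochondrial gene classes and for nuclear lists, 1 point per library. Wild-type library 1 lies at 0.60 for nuclear respiratory chain subunits and at -0.06 for the mitochondrial protein-coding genes.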

How the data were processed

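RNA-seq of 6 libraries, 3 sirt6 mutant and 3 wild type, was used. The authors deposited FPKM values with gene lengths and positions. The build GRCz11 and the tools HISAT2 2.0.5, featureCounts, DESeq2 and FastQC are named, per the submitters' processing notes. Annotation release and strand setting were not given in the sources used here. Reads per gene were recovered as whole numbers from FPKM and gene length, for 100% of values within 1e-06. Median-of-ratios factors of the FPKM values were equal in all libraries (1.01), so the deposited values were already on that scale.

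Limma 3.58.1 in R 4.3.3 with a variance trend was fitted to log2(FPKM + 0.5) for 23855 genes whose mean reached 0.5 FPKM, two-sided, with Benjamini-Hochberg adjustment. The added 0.5 understates folds of low genes. The fit was tested on simulated data. Class shares and ratios are descriptions, with exact permutation tests for single genes. The tRNA and rRNA genes carry no symbols in the table and took their names from RefSeq genes with the same start and end on MT (37 of 37 matched). No sequence was used here. Alternatives covered pseudocount, filter, scaling, voom, replicate block and libraries left out. The members, lists and tests were chosen with earlier results of these data known. All members are named, and of the nuclear lists 9 fixed genes and the 3 of smallest p in each, of which 1 is not reported here.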

Additional observations from a re-analysis of the deposited data

How the results depend on the processing

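Depth limits most tRNA genes, with under 100 reads per library, and 3 libraries per genotype limit all tests. The count of mitochondrial genes called was 0 with other pseudocounts, filters, rescalings, voom, the replicate block and any 1 library left out, but not with quantile normalization, which called 1 (trnN, lower) and moved the protein-coding median to -0.16. A mean of at least 5 FPKM moved the tRNA median to -0.058, as fewer genes were tested. With wild-type library 1 and mutant library 2 left out, an alternative chosen after seeing the data, 19 mitochondrial genes passed as lower and 4 as higher, where 9.42% and 9.15% of all genes did. The protein-coding median was then -0.56, the log2 ratio of summed protein-coding FPKM -0.62 and that of tRNA to mRNA reads 0.086. In that fit, of the 63 nuclear genes tested that express the mitochondrial genome, 2 passed as lower and 8 as higher. Of the 87 nuclear respiratory chain subunits tested, 15 passed as lower and 21 as higher. The libraries left there are close pairs, so genotype and pair cannot be told apart. With 1 library left out, the log2 ratio of summed tRNA FPKM ranged from -1.08 to -0.39 and that of tRNA to mRNA reads from -0.95 to 0.051, while mt-co2 to mt-co1 stayed between -0.46 and -0.35.

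Signs turned for uncalled genes. With 1 library left out, log2 fold changes ran from -0.16 to 0.19 for mt-rnr1, -1.36 to 0.32 for trnW, -1.01 to 0.18 for trnC, -0.27 to 0.41 for trnY, -0.47 to 0.31 for trnH, -0.74 to 0.43 for trnS2 and -0.65 to 0.37 for trnE. Quantile normalization gave 0.027 for mt-rnr1, and voom gave 0.020 for trnS2 and 0.0020 for trnE. With 2 libraries left out the values were 0.10 for mt-rnr1, 0.054 for trnC, -0.073 for trnY and -0.41 for trnH. The causes were not tested. With the replicate block, 0 mitochondrial genes passed and the protein-coding median stayed at -0.36; libraries of the same number had correlations of deviations of 0.0534, 0.0121 and 0.106, so the numbers are not taken to pair libraries.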
